A study of Mus musculus with 32 samples.

Results

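X-linked gene expression was compared between mouse XEN cells with a deletion labelled XRR KO, taken here as the whole deletion, and XEN cells with a deletion labelled XRRa KO, taken as a deletion of part of it. XEN cells are stem cells of the extraembryonic endoderm, the layer that gives rise to the yolk sac. The cells came from the cross 129S1/SvImj X JF1/Ms, so that reads from the 2 X chromosomes of a cell can be separated by strain. Of 32 samples in the series, 5 belong to the comparison. The XRR_KO group has 2 samples, from clone1 and clone2, and the XRRa_KO group has 3 samples, for which the labels name no clone. Cells labelled WT (3 samples) and XistpA (4 samples) stand in the same table and are given beside them. No agent is named for any of the 4 groups. The labels do not spell out XRR, XRRa or XistpA, and they do not give the extent of the XRR and XRRa deletions or the X chromosome that carries them.

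The authors deposited 1 value per gene, allele and group, merged over the samples of the group: the FPKM (fragments scaled to transcript length and to the size of the library) from the active X chromosome, Xa, and from the inactive X chromosome, Xi. No value carries a replicate spread, so no difference has a replicate check, no test was possible and the depth is unknown. The values of clone1 and clone2 cannot be separated in the merged column. The members are the genes whose summed allele levels had a mean of at least 1 FPKM across the 4 groups, 270 of the 953 genes in the table. The Xi share of a gene is its Xi FPKM as a percentage of its Xa plus Xi FPKM. Differences are XRR_KO minus XRRa_KO on the log2(FPKM + 0.5) scale, which understates changes of low genes. A gene is called higher in a group at a difference of 1 or more, a rule of size and not a test. In such bulk samples, fewer cells that express a gene and less RNA per cell cannot be told apart.

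Female mammals silence most genes on one of their X chromosomes. The process is set up by Xist, a long RNA that coats the chromosome from which it is made and recruits silencing factors. Its antisense partner Tsix is made from the opposite strand of the same locus. In mouse extraembryonic tissues the silenced chromosome is the paternal one. Some genes, called escape genes, keep being transcribed from the silenced chromosome; Kdm5c, Eif2s3x and Ddx3x are among them.

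The defining markers of XEN cells (Gata4, Gata6, Sox17, Sox7, Pdgfra and Dab2) are not X-linked and 0 of 6 are in the table, so the cell type could not be checked. X-linked markers of other cell types were low in the merged columns. The 4 trophoblast markers summed to 3.84 FPKM in XRR_KO and 5.41 in XRRa_KO, against 2.95 in WT, where Plac1 was 3.84 and 2.48 in the deletions, Esx1 was 2.92 in XRRa_KO and listed at 0 in the other 3 groups, and Rhox6 and Rhox9 were listed at 0 in all 4. The summed markers of neurons (4 genes), blood (8), embryonic stem cells (2) and stroma (4) were each below 1 FPKM in both deletions. The part of these levels in the results was not tested.

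On the inactive X, 34 of the 270 genes (12.6% of those tested) were higher in XRR_KO and 5 genes (1.85%) were higher in XRRa_KO. The 34 included 15 genes that reached an Xi share of 10% with the whole deletion only, led by Vbp1, 3830403N18Rik and Stard8, and 4 genes that reached it with both deletions but at a higher level with the whole one. A further 7 genes reached the share with the part deletion at a level not lower by 1 than with the whole deletion, among them Tceal8, Mum1l1 and Sh3bgrl. These 7 are called as high with the part deletion below, which means only not lower by 1. The 3 groups of genes were formed from these Xi values, so their Xi levels in XRR_KO, XRRa_KO and WT are a description. On the active X, 4 genes (1.48%) were higher in XRR_KO and 11 (4.07%) were higher in XRRa_KO.

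Promoters of 5 genes are shown because the groups of genes differ in the density of CpG dinucleotides there. Stard8, Fundc1 and Vbp1 belong to the genes expressed from Xi with the whole deletion only, Tceal8 to those as high with the part deletion, and Upf3b to those already expressed from Xi in WT. Each window runs from 250 bases before to 50 bases after the annotated start, 5′ to 3′ on the gene's strand, from RefSeq with the build GRCm38.p6, another build than the mm9 of the submitters' processing notes. The positions are chrX:99042331-99042630 on the plus strand for Stard8, chrX:17571958-17572257 on the minus strand for Fundc1, chrX:75514047-75514346 on the plus strand for Vbp1, chrX:136172202-136172501 on the minus strand for Tceal8 and chrX:37110273-37110572 on the minus strand for Upf3b. Capitals mark CpG dinucleotides.
Stard8: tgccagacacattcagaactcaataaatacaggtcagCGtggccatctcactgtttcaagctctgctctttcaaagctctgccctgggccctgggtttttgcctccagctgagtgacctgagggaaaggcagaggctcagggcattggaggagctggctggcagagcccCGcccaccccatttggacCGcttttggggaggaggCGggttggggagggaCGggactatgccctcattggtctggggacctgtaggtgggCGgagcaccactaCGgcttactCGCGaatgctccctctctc
Fundc1: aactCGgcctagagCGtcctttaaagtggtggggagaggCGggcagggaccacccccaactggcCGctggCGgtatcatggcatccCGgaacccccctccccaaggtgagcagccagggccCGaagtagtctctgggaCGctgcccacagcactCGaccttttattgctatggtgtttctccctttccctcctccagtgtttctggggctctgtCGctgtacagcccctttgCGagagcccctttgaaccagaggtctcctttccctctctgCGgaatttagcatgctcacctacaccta
Vbp1: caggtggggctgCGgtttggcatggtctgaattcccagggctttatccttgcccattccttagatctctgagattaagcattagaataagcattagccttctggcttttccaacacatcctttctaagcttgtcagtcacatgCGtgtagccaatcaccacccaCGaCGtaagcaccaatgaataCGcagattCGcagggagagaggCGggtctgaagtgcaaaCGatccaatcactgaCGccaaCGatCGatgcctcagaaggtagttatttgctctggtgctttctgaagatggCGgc
Tceal8: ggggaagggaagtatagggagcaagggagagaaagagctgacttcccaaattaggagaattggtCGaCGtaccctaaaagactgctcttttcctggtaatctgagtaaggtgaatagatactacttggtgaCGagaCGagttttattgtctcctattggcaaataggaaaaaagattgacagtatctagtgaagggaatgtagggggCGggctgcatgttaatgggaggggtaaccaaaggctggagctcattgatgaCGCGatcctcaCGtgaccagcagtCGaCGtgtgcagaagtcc
Upf3b: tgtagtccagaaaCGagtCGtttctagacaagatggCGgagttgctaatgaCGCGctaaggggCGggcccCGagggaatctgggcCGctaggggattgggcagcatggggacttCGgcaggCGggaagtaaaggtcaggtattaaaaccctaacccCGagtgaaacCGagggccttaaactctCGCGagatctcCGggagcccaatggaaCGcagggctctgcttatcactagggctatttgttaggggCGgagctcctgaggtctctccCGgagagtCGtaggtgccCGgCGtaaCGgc

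The printed windows hold 9 CpG in Stard8, 12 in Fundc1, 12 in Vbp1, 10 in Tceal8 and 22 in Upf3b. CpG density was measured as the observed number over that predicted from the C and G content of the window, averaged over a gene's windows. This ratio was 0.34 in Stard8, 0.46 in Fundc1, 0.65 in Vbp1, 0.65 in Tceal8 and 0.88 in Upf3b. A promoter window was found for 238 of the 270 tested genes, and their median ratio was 0.70. The 15 genes expressed from Xi with the whole deletion only had a median of 0.46, below that of all tested genes. The 4 genes higher with the whole deletion but expressed with both had a median of 0.52, and the 6 with a window among the 7 as high with the part deletion had a median of 0.62. Genes with an Xi share of 10% or more already in WT, without Xist and Tsix, had a median of 0.85 (26 genes with a window), above that of all tested genes. At a ratio of 0.6 or more, a limit chosen after the values were seen, the counts were 4 of 15 for the whole-only genes (26.7%), 20 of 26 for the genes expressed in WT (76.9%) and 155 of 238 for all (65.1%). The whole-only genes thus had the lowest share of CpG-dense windows of these 3, as a description of the lists with no test.

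Motifs in the same windows were searched on both strands and overlaps between motifs were allowed. A gene with several windows was counted if any of them held the motif, which gives such a gene more room for a match. The TATA box TATAAA was found in 1 of 15 whole-only genes, 3 of 4 genes higher with the whole deletion but expressed with both, and 0 of 6 genes as high with the part deletion, against 11.8% of all tested genes with a window. Among the 3 of 4, Cited1 has 3 windows and Atg4a 2. AANATGGC, the core of the YY1 motif, was found in 1 of the 15 whole-only genes, Vbp1, and in the Upf3b window, against 15.1% of all. GGGGCGGGG, an SP1 box, was found in 3 of the 15, against 19.7% of all. These matches describe letters in the windows and not bound sites.

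**Figure D1:**
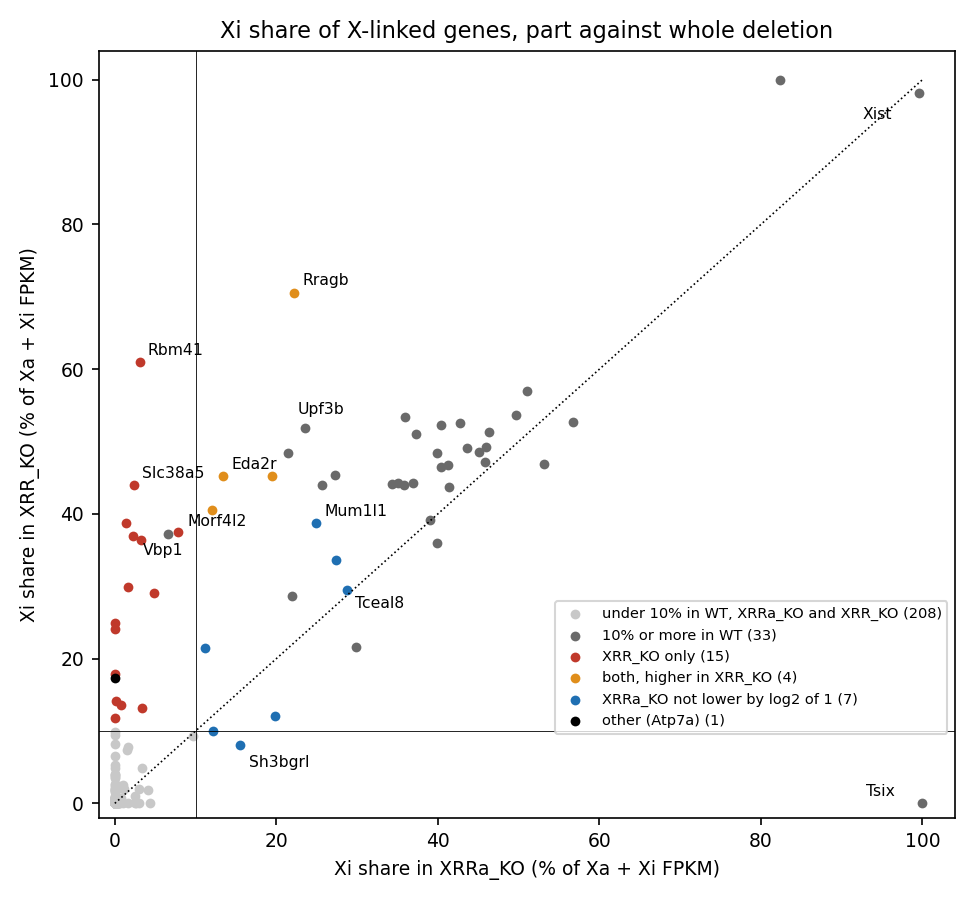
Each point is 1 tested gene with a defined Xi share in both groups, with its Xi share in XRRa_KO on the x axis and in XRR_KO on the y axis, both as a percentage of Xa plus Xi FPKM. The 15 whole-only genes lie below 10% on the x axis and between 11.8% and 61.0% on the y axis, and the 7 genes as high with the part deletion lie between 11.1% and 28.8% on the x axis, 3 of them below the diagonal.

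Of the 15 whole-only genes, 12 were below 1 FPKM on Xi in XRRa_KO and 4 of these were listed at 0. Of all 270 tested genes, 229 were below 1 FPKM there and 158 were listed at 0, so low values were not particular to the 15. Their median Xi share was 0% in WT, 1.62% in XRRa_KO and 29.1% in XRR_KO.

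Vbp1, a subunit of the chaperone prefoldin, had an Xi level of 0.123 FPKM in WT, 2.80 in XRRa_KO and 48.3 in XRR_KO. Its difference was 3.89, and its Xi share was 2.22% in XRRa_KO and 37.0% in XRR_KO. The XRRa_KO value lay between WT and XRR_KO. Xa levels ran the other way, at 123 FPKM in XRRa_KO and 82.3 in XRR_KO, and the sum of the alleles was 126 and 131.

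The uncharacterised gene 3830403N18Rik had 0.249 FPKM on Xi in WT, 2.05 in XRRa_KO and 35.6 in XRR_KO, a difference of 3.83. It overlaps several other annotated genes, and without strand the reads of overlapping genes cannot be separated. The same limit holds for 6 of the 15 whole-only genes, which also include Lamp2, Morf4l2, Rbm41, Rp2h and Tmsb15b2, and for 100 of all 270. Stard8, which encodes a protein with a lipid-binding START domain, had 0.00601 FPKM in WT, 0.525 in XRRa_KO and 7.65 in XRR_KO. Its Xi share was 3.27% with the part deletion and 36.3% with the whole one. The sequences of the Stard8, Fundc1 and Vbp1 promoters are those given above, with ratios of CpG below that of Upf3b.

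Genes of organelles were among the whole-only genes. Lamp2, a structural protein of the lysosome membrane, was listed at 0 on Xi in WT and had 0.339 FPKM in XRRa_KO and 5.70 in XRR_KO, a difference of 2.89. Fundc1, a receptor on the mitochondrial outer membrane for the removal of mitochondria by autophagy, had 0.0188 FPKM in WT, 0.0402 in XRRa_KO and 3.03 in XRR_KO, a difference of 2.71. In both genes the part deletion left the Xi share under 1% (0.726% and 0.168%), while the whole deletion gave 13.5% and 14.2%.

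Morf4l2, a subunit of histone acetyltransferase complexes, was the most abundant of the 15 on Xi, with 4.46 FPKM in WT, 26.3 in XRRa_KO and 125 in XRR_KO. Its Xi share of 7.79% in XRRa_KO was the nearest to the 10% limit among the whole-only genes. Morf4l2 has near-identical copies on other chromosomes, so its values are uncertain. Rbm41, which encodes an RNA-binding protein, was listed at 0 in WT and had 0.0246 FPKM in XRRa_KO and 2.04 in XRR_KO. In XRR_KO its Xi level was above its Xa level (1.30 FPKM), at a share of 61.0%, and the sum of its alleles differed by 1.56.

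The other whole-only genes had Xi levels of 0.765 to 2.21 FPKM in XRR_KO. Mospd1 (0 and 1.80 FPKM in XRRa_KO and XRR_KO), Zdhhc9 (0 and 1.44), Rp2h (0 and 1.17) and Amot (0 and 0.765) are the 4 genes listed at 0 with the part deletion. Zdhhc9 encodes a palmitoyltransferase, Rp2h a GTPase-activating protein of cilia, and Amot angiomotin, a scaffold of the Hippo pathway. Zc4h2 (0.0497 and 1.91 FPKM), the amino acid transporter Slc38a5 (0.0321 and 0.824) and the thymosin gene Tmsb15b2 (0.312 and 1.74) were also low with the part deletion. 2210013O21Rik, named Nbdy in RefSeq, had 0.823 and 2.21 FPKM, and its difference of 1.04 lay just inside the size rule. The nearest genes on Xi inside and outside the rule were Pja1 at 1.01, 2210013O21Rik at 1.04 and Kdm5c at 1.05, against Atp7a at 0.95, Renbp at 0.87 and Rnf128 at 0.80. Atp7a, a copper transporter, was listed at 0 on Xi in XRRa_KO and had an Xi share of 17.3% in XRR_KO, so only the size rule kept it out of the whole-only genes. With a pseudocount of 1, Amot (0.82), Slc38a5 (0.82) and 2210013O21Rik (0.82) were also under the rule.

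The 4 genes expressed from Xi with both deletions, but higher with the whole one, had shares of 12.1% to 22.2% in XRRa_KO and 40.5% to 70.6% in XRR_KO. Eda2r, a receptor of the tumour necrosis factor family, had 0.391 FPKM on Xi in WT, 9.56 in XRRa_KO and 46.7 in XRR_KO. Cited1, a transcriptional coregulator, had 5.96, 19.0 and 54.9 FPKM in the same order. These 2 genes were abundant, and XRRa_KO lay between WT and XRR_KO in both. Rragb, a Rag GTPase of amino acid sensing, was low, at 0.196 FPKM in XRRa_KO and 2.25 in XRR_KO, and was listed at 0 in WT and XistpA. Atg4a, a protease of autophagy, had 1.05 and 3.14 FPKM in XRRa_KO and XRR_KO and has a near-identical copy elsewhere, so its values are uncertain.

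The whole-only genes were next set against lines whose Xi shares did not form the group. XistpA entered the filter on the mean level of a gene but not the limits on the share. There 10 of the 15 reached 10%, with a median of 23.9%, beside 55 of the 270 tested genes and a median of 0.03%. The 5 that did not reach it there were 2210013O21Rik (listed at 0), Lamp2 (3.59%), Rp2h (3.99%), Zdhhc9 (4.06%) and Tmsb15b2 (6.69%). In XistpA 10% was also reached by 3 of the 4 genes expressed with both deletions (median 36.4%). So did 6 of the 7 genes as high with the part deletion (median 16.0%). A share of 10% in XistpA was thus not particular to the whole-only genes. The order of the whole deletion and XistpA differed from gene to gene: Vbp1 had 48.3 FPKM on Xi in XRR_KO and 20.2 in XistpA, while 3830403N18Rik had 35.6 and 91.8. In the other 8 groups of the series, measured in other tables (lines labelled XRRb and XRRc with a deletion on Xa or Xi, and Rad21 and Ctcf degron lines with DMSO or dTAG), none of the 15 reached 10%, beside 31 to 39 of the 270 genes per group. The highest share of the 15 there was 4.08%, of Morf4l2 in XRRb_XiKO. Most of the 31 to 39 genes were already at 10% or more in WT. Of the 31 such genes without Xist and Tsix, 28 to 30 reached 10% per group. The 15 were chosen for a share under 10% in WT, so the contrast with all tested genes is partly set by that choice.

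**Figure D2:**
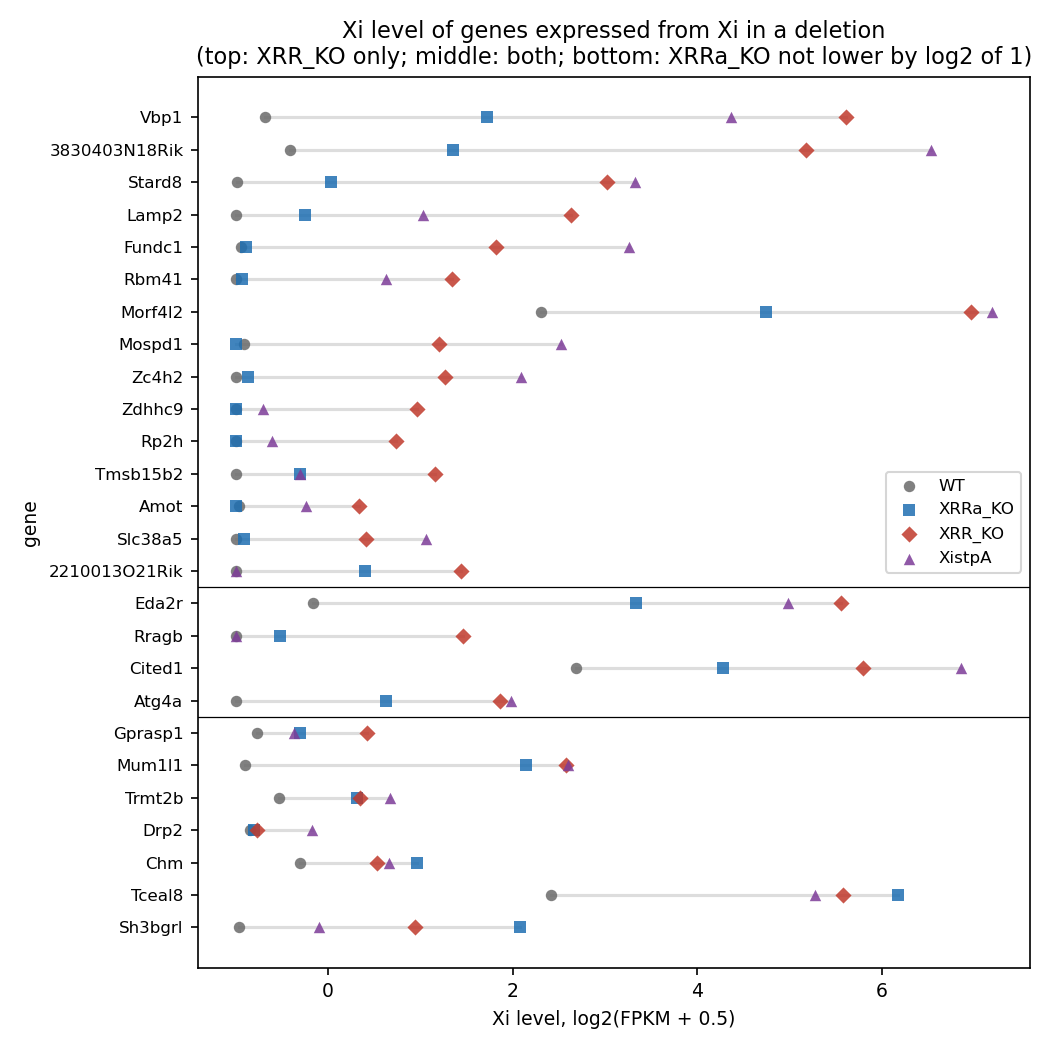
Xi levels on the log2(FPKM + 0.5) scale of the 15 whole-only genes (top), the 4 genes expressed with both deletions and higher with the whole one (middle) and the 7 genes as high with the part deletion (bottom), with 1 merged value per group. In the top block the XRRa_KO points lie left of the XRR_KO points for every gene by 1.04 to 3.89, and in the bottom block the 2 points lie within 1 of each other except for Sh3bgrl.

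On the active X and in the sum of the alleles the whole-only genes showed smaller differences. Their median difference was -0.34 on Xa, beside -0.24 over all tested genes, and 11 of the 15 were lower on Xa in XRR_KO (73.3%, against 70.7% of all tested genes). The sum of Xa and Xi differed by a median of 0.05, beside -0.16 over all tested genes. Of the 15 sums 12 lay within 0.5, beside 175 of the 270 tested genes. None of the 15 passed the size rule on Xa, which few tested genes did (1.48% higher in XRR_KO and 4.07% in XRRa_KO). Rbm41 (1.56) and Zdhhc9 (0.99) had the largest differences of the sum.

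Of the 7 genes as high with the part deletion, Sh3bgrl, Tceal8 and Chm had more FPKM on Xi in XRRa_KO, and Mum1l1, Gprasp1, Trmt2b and Drp2 had more in XRR_KO. Sh3bgrl was the only one past the size rule. Sh3bgrl, a small protein related to glutaredoxins, had 0.0121 FPKM on Xi in WT, 3.73 in XRRa_KO, 1.43 in XRR_KO and 0.434 in XistpA. Its Xi share was 15.6% with the part deletion and 8.02% with the whole one, and its difference was -1.14. It was just under the size rule, at -0.98, when the columns were scaled to equal median Xa FPKM, and at -0.96 with a pseudocount of 1.

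Tceal8, of the Tceal family of small transcription elongation factor-like proteins, was the most abundant of the 7, with 4.81 FPKM on Xi in WT, 71.9 in XRRa_KO and 47.4 in XRR_KO. Its Xi shares of 28.8% and 29.5% in the 2 deletions were almost the same, and its Xa level was also higher in XRRa_KO (178 against 113 FPKM). Outside the 4 groups its Xi share passed 10% in XRRb_XiKO (18.5%), in the Rad21 degron line with DMSO (12.7%) and dTAG (26.7%) and in the Ctcf degron line with DMSO (17.7%) and dTAG (14.1%). A share of Tceal8 above 10% was therefore not limited to the XRR and XRRa deletions.

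Mum1l1, a PWWP domain protein named Pwwp3b in RefSeq, had 0.0344 FPKM on Xi in WT, 3.93 in XRRa_KO and 5.49 in XRR_KO, at shares of 25.0% and 38.7%. Chm, a Rab escort protein, had 0.307, 1.45 and 0.943 FPKM in the same order, at shares of 19.8% and 12.1%. Trmt2b, a tRNA methyltransferase, had 0.740 FPKM in XRRa_KO and 0.771 in XRR_KO at shares of 27.4% and 33.6%. For these 3 genes the level with the part deletion was within 1 of that with the whole deletion, and above WT. Gprasp1, a sorting protein of G protein-coupled receptors, had 0.310 and 0.835 FPKM. Its difference of 0.72 became 1.19 with a pseudocount of 0.1, which takes it out of the group, and it overlaps Armcx5, so that its reads cannot be separated from those of that gene. Drp2, a relative of dystrophin, had 0.0722 and 0.0854 FPKM, too low for the order of the groups to be read. Trmt2b, Gprasp1 and Drp2 were below 1 FPKM on Xi in XRRa_KO.

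Some of the 7 genes were also expressed from Xi in other lines. The number at or past 10% was 2 in XRRb_XaKO, 3 in XRRb_XiKO, 0 in XRRc_XaKO, 1 in XRRc_XiKO, 5 in the Rad21 degron line with DMSO and 3 with dTAG, and 1 and 2 in the Ctcf degron line with DMSO and dTAG. Of all 270 tested genes the number was 36, 38, 31 and 33 in the XRRb and XRRc lines, in the same order. It was 36 and 39 in the Rad21 degron line and 35 and 34 in the Ctcf degron line. Chm had 12.3% in XRRb_XaKO, 13.4% in XRRb_XiKO, 10.1% in XRRc_XiKO and 28.6% and 36% in the Rad21 degron line with DMSO and dTAG. Trmt2b had 19.4% in XRRb_XaKO, 18.4% in XRRb_XiKO and 25% and 18.7% in the Rad21 degron line, and 13.6% in the Ctcf degron line with dTAG. In the Rad21 degron line with DMSO Gprasp1 had 13.9% and Drp2 23.1%. Mum1l1 and Sh3bgrl were the 2 of the 7 below 10% in all 8 of these groups.

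The 7 genes lay close together on the chromosome. In the order of RefSeq genes (GRCm38.p6, used for order only), 269 of the 270 tested genes could be placed: 135 on the centromere side of the Dxz4 locus, 40 between Dxz4 and Xist, Xist itself and 93 on the far side of Xist. All 7 genes as high with the part deletion were among the 93 beyond Xist, in a stretch of 31 consecutive tested genes, counted from the first of the 7 to the last, and 16 tested genes lie between it and Xist. The same stretch held 2 of the whole-only genes, Morf4l2 and Tmsb15b2, as well as 4 genes expressed from Xi in WT and 18 below 10% in WT and both deletions. Within the stretch the genes at or past 10% were 4 in WT, 11 in XRRa_KO, 12 in XRR_KO and 11 in XistpA. The stretch was bounded by the 7 genes, which were chosen for shares under 10% in WT and 10% or more in XRRa_KO. Its counts in WT and XRRa_KO are thus largely set by that choice and are no separate evidence. The stretch also depends on the settings. With a share limit of 20% the group had 5 genes, 3 of them among the 7. Pbdc1 and Tmem29, which joined, lie beyond Xist but outside the stretch. The order of the genes that joined without a filter on low values was not examined. The whole-only genes were spread over the chromosome, with 8 before Dxz4, 2 between Dxz4 and Xist and 5 beyond Xist. The 34 genes higher on Xi in XRR_KO made up 10.4%, 15% and 15.1% of the tested genes in these segments.

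**Figure D3:**
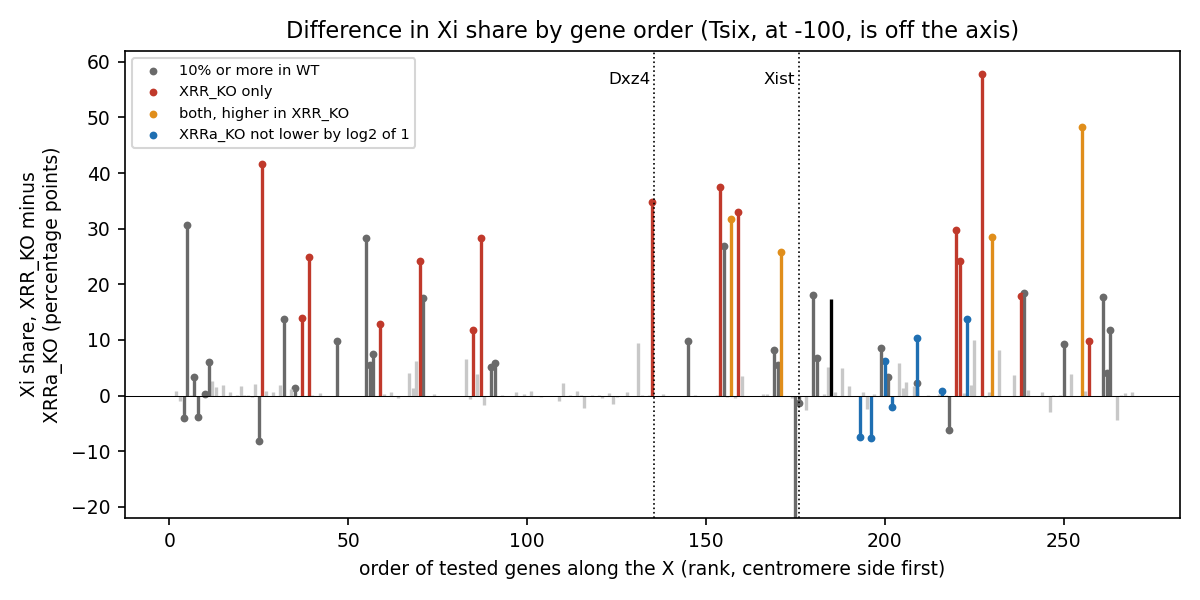
Difference in Xi share, XRR_KO minus XRRa_KO in percentage points, for the tested genes in their order along the X, with the centromere side on the left. The 7 genes as high with the part deletion fall within 31 consecutive tested genes beyond Xist, whereas the 15 whole-only genes lie along the whole order.

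Another 11 of the 34 genes higher on Xi in XRR_KO stayed below an Xi share of 10% in WT, XRRa_KO and XRR_KO. Cox7b, a subunit of cytochrome c oxidase, had the largest difference on Xi of all tested genes, 4.10, at 0.216 FPKM in XRRa_KO and 11.8 in XRR_KO. Its Xi share in XRR_KO was 5.24%, beside an Xa level of 213 FPKM. The membrane scaffold gene Mpp1 was listed at 0 in XRRa_KO and had 2.64 FPKM in XRR_KO, a share of 9.41%. Rpl36a, a ribosomal protein gene with near-identical copies, had 11.1 and 43.4 FPKM, and the glycolytic gene Pgk1, also with copies, was listed at 0 and had 2.05 FPKM. The remaining 7 (Xlr, Gm5643, Trap1a, Atp6ap2, Hnrnph2, Haus7 and Pja1) had 0.510 to 2.03 FPKM in XRR_KO, and all but Atp6ap2 (0.0306 FPKM) were listed at 0 in XRRa_KO. Gm5643 and Hnrnph2 also have near-identical copies, so their values are uncertain. Haus7, Hnrnph2 and Pja1 were under the size rule with a pseudocount of 1 (0.64, 0.66 and 0.59). Over the 34 genes, 12 were listed at 0 on Xi in XRRa_KO and 24 were below 1 FPKM there, beside 158 and 229 of the 270 tested genes.

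Genes expressed from Xi already in WT were compared as well. There were 33 genes with a WT share of 10% or more, 31 without Xist and Tsix. For these 31 the median Xi share was 31.5% in WT, 39.9% in XRRa_KO, 47.1% in XRR_KO and 48.2% in XistpA. In the other tables it was 36.1% in XRRb_XaKO, 37.4% in XRRb_XiKO, 32.6% in XRRc_XaKO, 36.1% in XRRc_XiKO, 30.4% and 43.8% in the Rad21 degron line with DMSO and dTAG, and 24.7% and 24.8% in the Ctcf degron line. The XRRa_KO median was thus above those of these other groups except the Rad21 degron line with dTAG (43.8%). That of XRR_KO was above all of them. The share was above WT for 26 genes in XRRa_KO and for 28 in XRR_KO. It was higher in XRR_KO than in XRRa_KO for 27 genes and lower for 4. Between these deletions the median difference of the 31 genes was 0.23 on Xi and -0.25 on Xa, beside 0 and -0.24 over all tested genes. On Xa 25 of them were lower in XRR_KO (80.6%, against 70.7% of all tested genes). At the median, the higher shares thus went with a higher Xi level and with an Xa level about as much lower as over all tested genes. Both medians depend on the scaling of the columns. Shares between 40% and 60%, near equal expression of the alleles, were found for 5 of the 31 genes in WT, 14 in XRRa_KO, 25 in XRR_KO and 23 in XistpA.

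**Figure D4:**
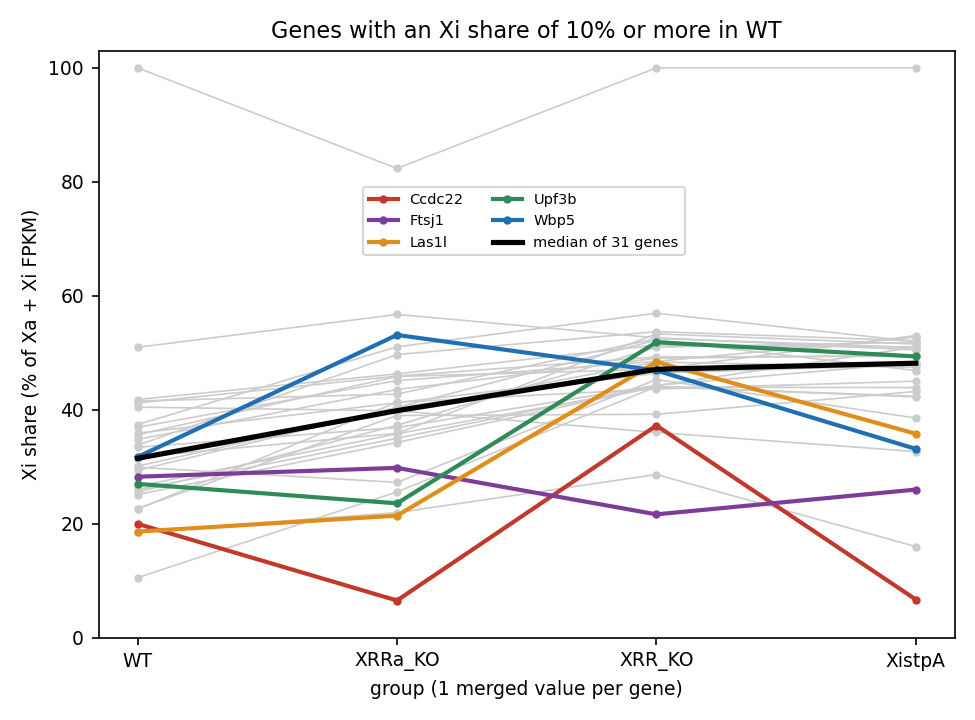
Xi share of the genes at or past 10% in WT, shown for WT, XRRa_KO, XRR_KO and XistpA, with 1 line per gene and Xist and Tsix left out. The median goes from 31.5% in WT to 39.9% in XRRa_KO and 47.1% in XRR_KO, and named lines such as Ccdc22, Wbp5 and Ftsj1 depart from it.

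Within this set 4 genes were higher on Xi in XRR_KO by the size rule. Las1l, a factor of ribosomal RNA processing, had 2.12 FPKM on Xi in WT, 2.67 in XRRa_KO and 9.84 in XRR_KO. Upf3b, of nonsense-mediated mRNA decay, had 4.37, 4.63 and 11.4 FPKM in the same order, and its share went from 27.0% to 23.6% and 51.9%. For both genes XRRa_KO was close to WT. Kdm5c, a histone H3 lysine 4 demethylase, had 0.763, 1.09 and 2.80 FPKM, and its difference was 0.86 with a pseudocount of 1. Ccdc22, a subunit of an endosomal sorting complex, had 2.39, 0.781 and 4.70 FPKM. The Xi share of Ccdc22 was 6.55% in XRRa_KO, 37.2% in XRR_KO and 6.72% in XistpA, and among other lines with a deletion on Xa it was 4.96% in XRRb_XaKO and 38.4% in XRRc_XaKO. It overlaps Foxp3 in the annotation, and its share varied among lines as widely as between the 2 deletions.

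Wbp5 and Ftsj1 were higher on Xi in XRRa_KO. Wbp5, named Tceal9 in RefSeq, had 649 FPKM on Xi in XRRa_KO and 239 in XRR_KO, against 199.8 in WT and 158 in XistpA. It was higher on Xa too, at 573 FPKM against 271, so that the share differed less (53.1% and 46.9%) than the levels, whose difference was -1.44 on Xi and -1.08 on Xa. Wbp5 alone made up 54.8% of the summed Xi FPKM of XRRa_KO without Xist, Tsix and Rps4x, and 21.7% of that of XRR_KO. Ftsj1, a tRNA methyltransferase, had 5.37 FPKM on Xi in WT, 5.55 in XRRa_KO and 2.40 in XRR_KO. Its difference of -1.06 became -0.89 when the columns were scaled and -0.95 with a pseudocount of 1. Here the part deletion was like WT and the whole deletion lower.

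Xist had 15.5 FPKM on Xi in WT, 7.86 in XRRa_KO and 1.18 in XRR_KO and was listed at 0 in XistpA. The gene listed as Tsix had 31.2, 16.5, 0 and 0 FPKM in the same order. The libraries keep no strand and the genes overlap, so reads of Xist and Tsix cannot be told apart, and the 2 differences (-2.31 and -5.09) are not independent. The value listed for Xist in the part deletion lay between those of WT and XRR_KO, and so did the value listed for Tsix. Of the other escape genes, Eif2s3x, a translation initiation factor, had an Xi share of 42.8% in XRRa_KO and 52.5% in XRR_KO, and Ddx3x, an RNA helicase, had 45.9% and 47.1%. Neither passed the size rule. Kdm6a, another known escape gene, had an Xi value of 0 in each of WT, XRRa_KO, XRR_KO and XistpA.

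Summed over the tested genes without Xist and Tsix, the Xi share was 9.10% in WT, 14.4% in XRRa_KO, 18.9% in XRR_KO and 17.6% in XistpA. Rps4x, a ribosomal protein gene with near-identical copies, had 1161 FPKM on Xi in XRR_KO and 1168 in XRRa_KO, about as much as the other genes of the sum together (1101 and 1185 FPKM). Without it the shares were 4.04%, 8.67%, 11.5% and 9.87%, and without Wbp5 as well, a step chosen after the values were seen, they were 2.61%, 4.30%, 9.47% and 8.94%. The order of the groups was the same in the 3 sums, but the distance between the deletions grew when Wbp5 was left out. The summed Xa level without Rps4x was 12269 FPKM in WT, 12493 in XRRa_KO and 8508 in XRR_KO. In the deposited FPKM with Wbp5 kept, the higher summed share of XRR_KO over XRRa_KO went with a lower Xa sum. The Xi sum was not higher in XRR_KO. Scaling the columns to equal median Xa FPKM shifts these 2 groups by 0.20 on the log2 scale. The sums thus depend on the scaling and the shares do not, and scaled sums were not computed. Without Wbp5 as well, the Xi sum was 862 FPKM in XRR_KO and 536 in XRRa_KO. By number, genes at or past 10% were 33 in WT, 43 in XRRa_KO, 58 in XRR_KO and 55 in XistpA. Genes listed at 0 on Xi numbered 178, 158, 123 and 128.

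On the active X the median difference over all tested genes was -0.24, and scaling the columns to equal median Xa FPKM shifted every gene by about 0.20. With that scaling 8 genes were higher on Xa in XRR_KO and 7 in XRRa_KO, in place of 4 and 11, while on Xi the counts were 35 and 3 in place of 34 and 5. Gpc4, Haus7, Sat1 and Wbp5 were under the size rule on Xa with that scaling. The Xa split therefore depended on the scaling and the Xi split kept its direction. Xlr3a, of a family of lymphocyte-regulated genes, was listed at 0 on Xa in XRR_KO and had 127 FPKM in XRRa_KO, 138 in WT and 83.0 in XistpA. Its relative Xlr4a was listed at 0 in XRR_KO and had 1.81 FPKM in XRRa_KO. The Xlr3 and Xlr4 genes are near-identical within their families, so these values are uncertain. Timp1, an inhibitor of matrix metalloproteinases, had 0.563 FPKM in XRR_KO and 12.6 in XRRa_KO, with 3.38 in WT, so the 2 deletions lay on either side of WT. Gpc3, a glypican of the cell surface, had 11.4 and 37.3 FPKM, with 19.4 in WT, and likewise the 2 deletions lay on either side. Mtcp1 (a difference of -1.60) and 4933402E13Rik (-1.34) complete the 6 largest differences in this direction.

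Armcx1, a mitochondrial armadillo-repeat protein, had 1.68 FPKM on Xa in XRR_KO and 0.186 in XRRa_KO, a difference of 1.67. Itm2a, a membrane protein, differed by 1.43 (3.68 and 1.05 FPKM), and the deubiquitinase Usp9x by 1.02 (14.8 and 7.06), or 0.97 with a pseudocount of 1. Usp9x in WT, at 7.18 FPKM, was like XRRa_KO. Tsix was the fourth gene, at a low Xa level of 0.503 FPKM against 0 listed, a difference that was 0.59 with a pseudocount of 1. Rlim, a ubiquitin ligase that acts on X inactivation, had 27.3 and 14.7 FPKM, a difference of 0.87 that passed the size rule only with scaling (1.07).

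**Figure D5:**
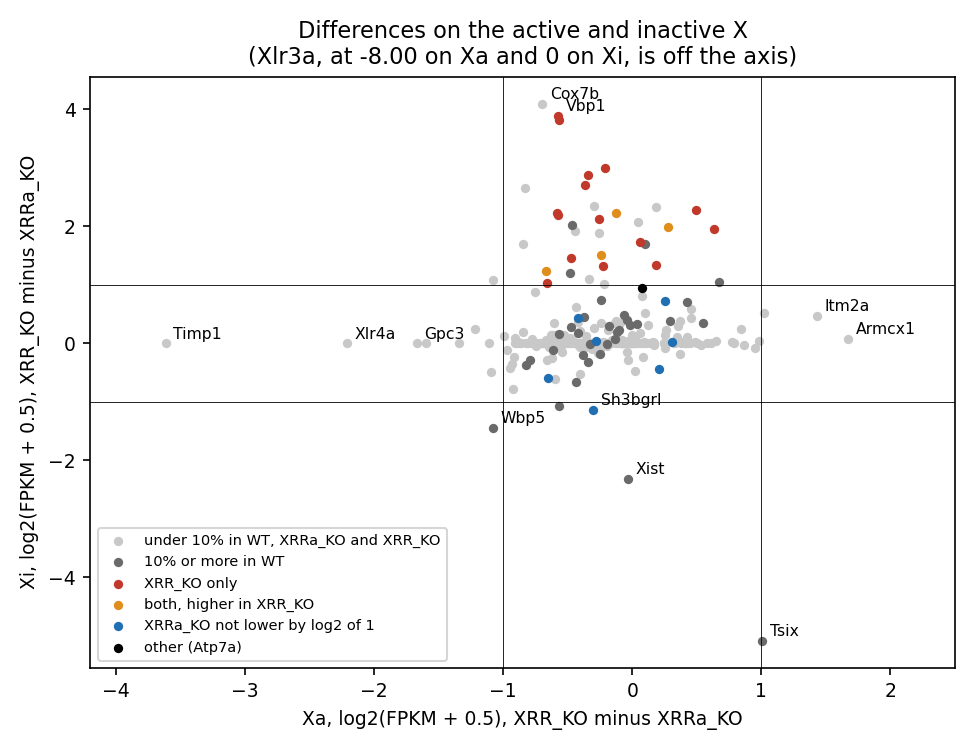
Difference on Xa (x axis) against difference on Xi (y axis), both as log2(FPKM + 0.5) in XRR_KO minus XRRa_KO, for the tested genes except Xlr3a, which is outside the range of the x axis. The 34 genes higher on Xi in XRR_KO lie within -1.08 to 0.67 on Xa, and the genes past the size rule on Xa are under it on Xi except Wbp5, Tsix and Haus7.

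Counts for 11 lists of X-linked genes by role are given beside those of all tested genes (34 higher on Xi in XRR_KO, 5 in XRRa_KO, median 0 on Xi and -0.24 on Xa). The lists were written with earlier results of these data known. Of 12 tested extraembryonic and lineage genes, 5 were higher on Xi in XRR_KO (Cited1, Trap1a, Amot, Eda2r and Stard8) and 1 in XRRa_KO (Sh3bgrl), with a median of 0.52. On Xa 1 of them was higher in XRR_KO (Itm2a) and 3 in XRRa_KO (Gpc3, Gpc4 and Timp1). Several of these genes were put on that list for how they moved, so the count is no independent evidence.

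Of 13 tested genes for respiration and mitochondrial proteins, 2 were higher on Xi in XRR_KO (Cox7b and Fundc1) and 0 in XRRa_KO, with a median of 0.04 on Xi and -0.61 on Xa. Of 8 lysosome and ion transport genes, 2 were higher on Xi in XRR_KO (Lamp2 and Atp6ap2), with a median of 0.33, and Atp6ap1 was higher on Xa in XRRa_KO. Pgk1 was the 1 of 8 glycolysis, pentose and purine genes, Rpl36a the 1 of 9 ribosomal and translation genes and Vbp1 the 1 of 3 prefoldin and folding genes that were higher on Xi in XRR_KO. The medians of these 3 lists on Xi were 0, 0.15 and 0.15. These are small counts beside the 12.6% of all tested genes, and nothing particular to the lists is read from them.

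Among chromatin and transcription genes 2 of 25 were higher on Xi in XRR_KO, Kdm5c and Morf4l2, with a median of 0 on Xi and -0.04 on Xa. Of 11 ubiquitin genes, Pja1 was higher on Xi and Usp9x on Xa in XRR_KO. Of 8 known escape genes 1, Kdm5c, was higher on Xi in XRR_KO, and 7 had an Xi share of 10% or more in either deletion. Of 5 genes of the Bex and Tceal family none was higher on Xi in XRR_KO, and Wbp5 was higher on both alleles in XRRa_KO, with medians of -0.26 on Xi and -0.66 on Xa. Of 5 genes of the X inactivation centre, Xist and Tsix were higher on Xi in XRRa_KO, and Tsix was higher on Xa in XRR_KO. Reads of these 2 genes cannot be told apart, so they are not separate counts.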

How the data were processed

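Per the labels' protocols, polyadenylated RNA of the XEN cell samples was made into unstranded Smart-seq2 libraries. Build mm9, StringTie 2.1.1, HISAT2 2.2.0 and Trim Galore 0.6.4 stand without roles in the submitters' processing notes. How alleles were assigned was not given in the sources used here. FPKM values were deposited by the authors, merged over the samples of a group, per the file names, so limma on separate samples, planned where the table allowed it, was not possible. Since FPKM holds no read total, intervals could not be computed. Genes at 0 are called listed at 0, because an estimate may also have failed.

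Xi shares and differences of log2(FPKM + 0.5) were computed in Python 3.11.15 with pandas 2.3.3 after a filter of 1 FPKM. The calculation was tested on simulated data. Between tables only Xi shares were set side by side. An Xi share of 10% and a difference of 1 defined the groups of genes. The members and gene lists were chosen with earlier results of these data known. Named genes were all members of the 3 groups, genes higher on Xi in XRRa_KO, up to 6 of the largest Xa differences each way past the size rule, Xist, Tsix, Rlim, Kdm5c, Kdm6a, Eif2s3x, Ddx3x, genes next to the size rule and 2 to 4 members of each list. Others were named after their values were seen. Transcripts of GENCODE M21 on the X were aligned to those of other chromosomes with minimap2 2.31. Near-identical copies (95% identity over 50% of the length) were found for 23 of the 269 tested genes with a transcript. Promoter windows matched 238 of 270 genes.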

Additional observations from a re-analysis of the deposited data

How the results depend on the processing

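Every column is 1 merged value, so leaving out single replicates was not possible, and every difference rests on the authors' merging. No paired analysis was possible because each group and allele has a single merged column with no replicate number. The depth behind low Xi values is unknown. No named gene changed direction while past the size rule. The count of whole-only genes was between 10 and 18 over all settings, but its members changed. With a share limit of 20%, 10 of the 13 were shared with the 15 (Fundc1, Lamp2, Mospd1, Amot and 2210013O21Rik left, Atg4a, Cited1 and Eda2r joined), and with 5%, 14 of the 18 were shared (Morf4l2 left, Cox7b, Gm5643, Mpp1 and Rpl36a joined). A filter of 5 FPKM took out Amot, Rbm41, Rp2h, Slc38a5 and Zdhhc9, and a size rule of 1.5 took out 2210013O21Rik, Amot, Slc38a5 and Tmsb15b2. The 34 genes higher on Xi in XRR_KO became 27 with a pseudocount of 1 FPKM, 27 with a filter of 5 FPKM, 24 with a size rule of 1.5 and 28 without genes that have a near-identical copy. With a pseudocount of 1 FPKM 9 named Xi differences and 3 on Xa were no longer past the size rule. With a pseudocount of 0.1 FPKM, 53 genes were higher on Xi in XRR_KO and 12 in XRRa_KO, and with 1 FPKM 3 were higher on Xi in XRRa_KO and 2 on Xa in XRR_KO. Without a filter on low values, 14 genes were as high with the part deletion, 92 had an Xi share of 10% or more in XRR_KO and the median Xa difference was -0.049. With a filter of 5 FPKM, 4 genes were as high with the part deletion, 2 were higher on Xa in XRR_KO and 7 in XRRa_KO, and the median Xa difference was -0.38. Scaling to equal median Xa FPKM gave 3 genes higher on Xi in XRRa_KO, 8 and 7 higher on Xa in XRR_KO and XRRa_KO, and a median Xa difference of -0.057. A share limit of 5% gave 4 genes as high with the part deletion, and 20% gave 2 genes expressed with both and higher with the whole deletion. A size rule of 1.5 gave 2 genes higher on Xi in XRRa_KO and 1 and 5 higher on Xa in XRR_KO and XRRa_KO. Chosen after the values were seen, leaving out Rps4x gave summed Xi shares of 11.5% in XRR_KO and 8.67% in XRRa_KO, and leaving out Wbp5 too gave 9.47% and 4.30%. Fewer or more genes pass a filter by its construction, and the cause of the other changes was not tested. With XRRb_XaKO and XRRc_XaKO in place of WT, also chosen afterwards, the 15 whole-only genes remained and 5 of the 7 genes as high with the part deletion remained (without Chm and Trmt2b).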
